A study of Mus musculus with 2 samples.

Results

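Of the 196 cells that passed the filters of the study, 47 carried the identity of astrocytes and radial glia-like cells (RGLs) in the deposited cell annotation, and these 47 cells are described here. They comprised 18 of the 64 freshly isolated cells (28.1%, 95% exact Clopper-Pearson interval 17.6 to 40.8) and 29 of the 132 methanol-fixed cells (22.0%, 15.2 to 30.0). The annotation gave 1 name to both cell types and did not separate them. The other 149 cells, 46 fresh and 103 MeOH-fixed, carried 7 other identities, namely endothelial cells, immature neurons, mature neurons, microglia, oligodendrocytes, oligodendrocyte precursor cells (OPCs), and neural intermediate progenitors with neuroblasts (nIPCs). In that order they were 6, 5, 2, 10, 2, 5 and 16 fresh and 8, 25, 19, 7, 13, 10 and 21 MeOH-fixed cells. Ratios over the other cells thus rest on a different mix of identities in each library.

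The cells came from the dentate gyrus (DG) of C57BL/6J mice 4 to 5 weeks old and were sequenced by SORT-seq, a method that captures single cells by flow sorting in 384-well plates and tags each transcript with a unique molecular identifier (UMI). The Fresh plate held dissociated cells pooled from 3 mice and sorted with a dead-cell stain, and the MeOH-fixed plate held cells pooled from 4 mice, fixed in methanol, stored for 3 weeks and rehydrated before sorting without that stain. On each plate 8 wells were left empty, scatter gates removed debris and doublets, no doublets were called afterwards, and the labels named no transgene or further treatment. Each condition was thus 1 library from 1 pool of mice, so that fixation, pool and plate cannot be told apart, no test between conditions could be made, and all intervals below are 95% intervals that cover counting error only.

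Astrocytes are the glia that clear glutamate from synapses, buffer potassium, move water, supply lipids and metabolites to neurons, and are joined to each other by gap junctions. RGLs are the neural stem cells of the adult DG. They send a radial process from the subgranular zone through the granule cell layer, give rise to intermediate progenitors and new granule neurons, and share most of their abundant transcripts with astrocytes, so that only a few genes tell the 2 cell types apart.

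Summed over the group, 109572 UMIs were counted for the 18 fresh cells and 80722 for the 29 MeOH-fixed cells. A fresh cell held a median of 5830 UMIs (1534 to 11409) and a MeOH-fixed cell a median of 2196 (1000 to 6999), against medians of 6627.5 and 4033 in the other cells. A median of 1791.5 genes was detected in a fresh cell and 910 in a MeOH-fixed cell, and once every cell had been thinned to 800 UMIs these medians were 425 and 433. The mitochondrial share of transcripts had a median of 20.5% (0.962 to 65.8) in the fresh and 16.8% (3.89 to 43.9) in the MeOH-fixed cells. Among the 8 identities this median ranked 1st in the fresh and 2nd in the MeOH-fixed library, after mature neurons at 17.0%. None of the 47 cells shared its well barcode with a cell of this identity on the other plate, and 24 barcodes recurred across the plates among all 196 cells. Apart from mitochondrial genes, the most abundant transcript of the group was Rn45s, a ribosomal RNA precursor, at 66486 CPM (counts per 1e6 UMIs) in fresh and 84500 CPM in MeOH-fixed cells.

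The label was checked against 6 markers, given here as CPM summed over the cells of a group. All 6 were at least 20-fold higher in the 47 cells than in the other cells of the same library in both conditions. The annotation rested on such genes, so these ratios describe the group and do not test it. Aldoc, an aldolase of glycolysis (GRCm38, chr11:78322968-78327781, plus strand), stood at 7465 CPM in the fresh and 6553 CPM in the MeOH-fixed cells, 93.2-fold (66.2 to 136) and 67.4-fold (51.9 to 89.0) above the other cells. Slc1a3, the glutamate transporter GLAST (chr15:8634124-8710764, minus strand), stood at 5722 and 5612 CPM, 59.3-fold and 67.4-fold above them. Both were detected in nearly every cell: Aldoc in 18 of 18 fresh and 28 of 29 MeOH-fixed cells, and Slc1a3 in all 47. In the other cells, at greater depth, a UMI of Aldoc was seen in 47.8% of fresh and 36.9% of MeOH-fixed cells, and at 800 UMIs per cell in 10.9% and 12.6%, against 94.4% and 96.6% of the astrocytes and RGLs.

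The 4 remaining markers were less abundant. Gja1, which encodes the gap junction protein connexin 43 (chr10:56377330-56402513, plus strand), was at 1415 and 2180 CPM, 100-fold and 157-fold above the other cells. The water channel gene Aqp4 was at 785 and 1610 CPM, 111-fold (36.8 to 549, on 3 UMIs in the other fresh cells) and 174-fold above them. Hopx, a homeodomain cofactor found in astrocytes and quiescent stem cells (chr5:77086988-77115121, minus strand, with the gene Hopxos on the opposite strand), was at 1442 and 1437 CPM, and the transcription factor gene Sox9 at 1031 and 941 CPM. A UMI of Aqp4 was found in 14 fresh and 22 MeOH-fixed cells, of Gja1 in 17 and 27, of Hopx in 16 and 25, and of Sox9 in 16 and 23. Of the markers by which the study named the group, Id4 stood at 493 and 471 CPM, Sox2 at 593 and 446 CPM, and S100b at 383 and 310 CPM, the last only 4.28-fold and 3.52-fold above the other cells.

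**Figure D1:**
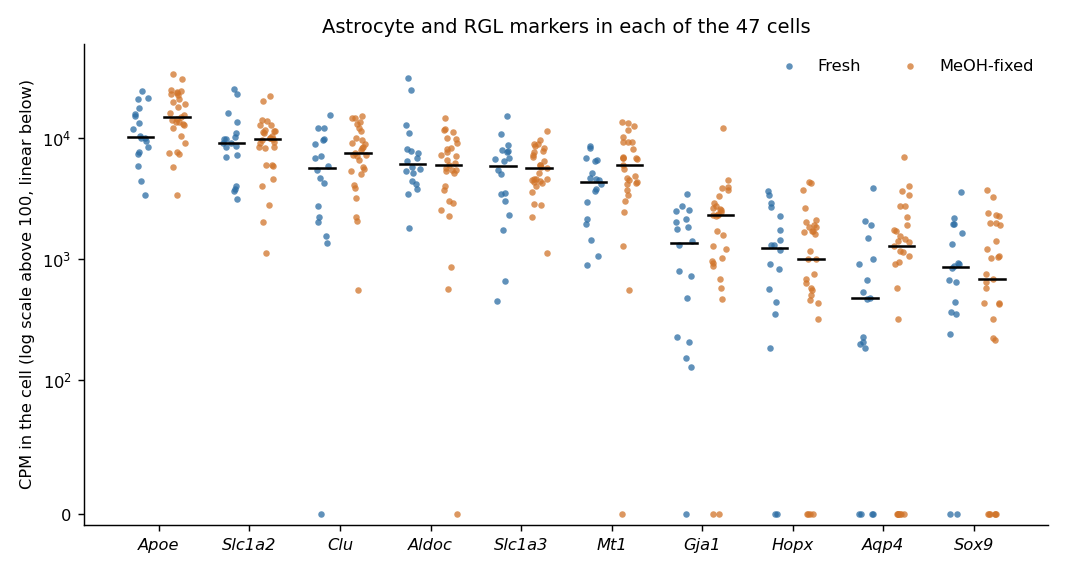
Each point is 1 cell, blue for the 18 fresh and orange for the 29 MeOH-fixed cells, with its CPM for 10 genes on a scale that is linear below 100 and logarithmic above, and bars mark the median over cells. Apoe and Slc1a2 are above 0 in all 47 cells, whereas Gja1, Hopx, Aqp4 and Sox9 are at 0 in some cells of both conditions.

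A correlation of each cell with the summed profile of each identity in the other library, over log2(CPM + 1), placed 18 of 18 fresh and 28 of 29 MeOH-fixed cells nearest to astrocytes and RGLs. The median Pearson r to that profile was 0.396 (0.273 to 0.468) for fresh cells and 0.318 (0.255 to 0.427) for MeOH-fixed cells, and r exceeded that to the next identity by medians of 0.0898 and 0.0927. The next identity was most often oligodendrocytes for fresh cells (13 of 18) and OPCs for MeOH-fixed cells (22 of 29). Fresh cells were read against profiles of 13 oligodendrocytes and 10 OPCs, and MeOH-fixed cells against profiles of 2 and 5. The part of these unlike profiles in the difference was not tested. The 1 MeOH-fixed cell not nearest to astrocytes and RGLs had 3150 UMIs and lay nearer to immature neurons by 0.044. The identities were annotated on both libraries together, so this is a description of the group.

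Across the genome, 208 of 1926 genes (10.8%) were at least 2-fold higher in the 18 fresh cells than in the other fresh cells, and 892 (46.3%) were at least 2-fold lower, among genes with at least 50 UMIs in the library. In the MeOH-fixed library 228 of 3047 genes (7.48%) were higher and 1536 (50.4%) lower. In both libraries 136 of the 1768 genes measured in both (7.69%) were higher, 579 (32.7%) lower, and 5 (0.283%) passed 2-fold in opposite directions. The median log2 ratio over all genes measured was -0.88 in the fresh and -1.02 in the MeOH-fixed library, which is the background for the gene groups that follow.

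**Figure D2:**
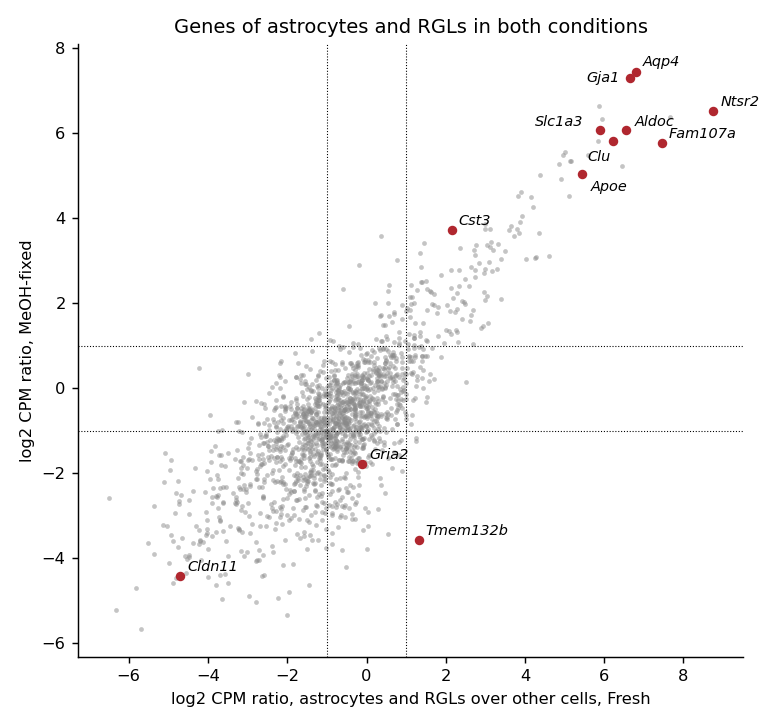
Each point is 1 of 1646 genes, placed by its log2 CPM ratio of astrocytes and RGLs over all other cells in the fresh (x axis) and the MeOH-fixed library (y axis), with dotted lines at a 2-fold ratio. Markers such as Aldoc, Gja1, Aqp4 and Ntsr2 lie at the upper right in both libraries, Cldn11 at the lower left, and 122 genes with a sum of 0 are not drawn.

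The 25 genes with the highest ratio in both conditions at once were all highest in this group among the 8 identities in each library. After the zinc transporter gene Slc39a12, which gave no UMI in any other cell of either library and was at least 46.5-fold (Fresh) and 88.3-fold (MeOH-fixed) higher against a floor of 3 counts, they were led by AI464131 (a gene with a provisional name), the chemokine gene Cxcl14, Aqp4, Hapln1, Gja1, Ntsr2 and Gjb6. Ntsr2, a neurotensin receptor, was at 1013 CPM in the fresh and 1412 CPM in the MeOH-fixed cells and rested on 1 UMI in the other fresh cells, where its ratio of 430 had an interval of 75.6 to 17138. Further down the 25 were the acyl-CoA synthetase gene Acsbg1, the claudin gene Cldn10, the cholesterol acyltransferase gene Lcat, the growth factor receptor gene Fgfr3, the adhesion gene Vcam1, and Fam107a, which was 175-fold and 54.1-fold higher. OPCs were the second highest identity for 7 of these genes in each library, and endothelial cells for 3 in the fresh and 5 in the MeOH-fixed library. For 6 genes in the fresh and 2 in the MeOH-fixed library every other identity was at 0.

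Genes of transmitter uptake were uniformly higher. All 5 of the 8 listed genes that reached 50 UMIs were at least 2-fold higher in both libraries, with median log2 ratios of 3.49 and 3.38. Slc1a2, the main glutamate transporter GLT-1, was at 9774 and 10072 CPM, 35.5-fold and 40.8-fold above the other cells, and was detected in all 47. Glul, glutamine synthetase, which converts the glutamate taken up, was at 3459 and 5203 CPM. Slc6a11, a GABA transporter gene, was found with 20 UMIs in each library, under that minimum.

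Genes of coupling, water and potassium handling showed the same pattern, with 8 of 8 measured genes higher in both libraries and median log2 ratios of 5.54 and 5.84. Atp1b2, which encodes a sodium pump subunit, was at 5001 CPM when fresh and 5290 CPM when MeOH-fixed. Gjb6, which encodes connexin 30, was at 475 and 644 CPM, and Mlc1, a membrane protein of astrocyte endfeet, at 867 and 619 CPM. Kcnj10, the potassium channel Kir4.1, a channel that oligodendrocytes are known to carry too, was 4.98-fold and 2.14-fold higher.

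Lipid carriers and secreted proteins were among the most abundant transcripts of the group. Of the 11 genes measured in each library, 9 were higher in fresh and 10 in MeOH-fixed cells. Apoe, the main lipid carrier of the brain, was at 12348 and 16959 CPM, 43.3-fold and 32.7-fold above the other cells, and Clu, which encodes clusterin, at 6343 and 8213 CPM. Cst3, the protease inhibitor cystatin C, was equally abundant at 12804 and 14953 CPM but only 4.43-fold and 13.2-fold higher, and microglia held more of it, 23099 and 28422 CPM. Sparc, a matrix protein gene, and Fabp5, a fatty acid carrier gene, were the exceptions in the fresh library, at 1.28-fold and 1.48-fold.

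Of the metabolic enzymes, 5 of 5 measured genes were higher in the fresh and 6 of 6 in the MeOH-fixed library. Aldh1l1, the folate enzyme widely used to mark astrocytes, was found in 10 fresh and 9 MeOH-fixed cells with 23 and 14 UMIs and in no other cell of either library. Agt, which encodes angiotensinogen, likewise gave 27 and 17 UMIs and none elsewhere. Among receptors, 7 of 9 genes were higher in the fresh and 8 of 12 in the MeOH-fixed library, where the glutamate receptor genes Gria2 and Grm5 were lower. Gpr37l1, an orphan receptor of glia, led them at 2154 and 1920 CPM, and S1pr1, a lipid receptor, Ptprz1, a receptor phosphatase, and Ntrk2, a neurotrophin receptor, lay close together at 1241, 1196 and 1159 CPM when fresh and 1313, 1276 and 1313 CPM when MeOH-fixed.

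The metallothioneins, small proteins that bind zinc and copper, were higher in all 3 members in both libraries. Summed over the 3 genes they made up 7137 CPM in fresh and 10530 CPM in MeOH-fixed cells, 33.7-fold and 26.3-fold above the other cells. Mt1 was at 4226 and 6454 CPM and detected in 18 of 18 and 28 of 29 cells. Its lowest, median and highest cells held 899.5, 4337 and 8606 CPM in the fresh library and 0, 5952 and 13528 CPM in the MeOH-fixed library, and the conditions overlapped over most of their range. Mt2 was at 2419 and 3630 CPM, and Mt3, the brain form, at 493 and 446 CPM.

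Mt1 and Mt2 lie next to each other on chromosome 8 and are known to be induced together through metal response elements (MREs). The 250 bases upstream of their start sites (RefSeq, GRCm38.p6, plus strand; Mt1 chr8:94178839-94179088, Mt2 chr8:94172368-94172617) are shown because both genes were high together, with each match to the MRE core TGCNCNC on either strand in capitals.
Mt1: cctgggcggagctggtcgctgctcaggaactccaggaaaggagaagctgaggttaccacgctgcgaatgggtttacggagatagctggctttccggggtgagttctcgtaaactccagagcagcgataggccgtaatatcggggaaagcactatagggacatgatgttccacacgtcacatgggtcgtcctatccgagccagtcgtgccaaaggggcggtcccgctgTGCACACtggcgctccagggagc
Mt2: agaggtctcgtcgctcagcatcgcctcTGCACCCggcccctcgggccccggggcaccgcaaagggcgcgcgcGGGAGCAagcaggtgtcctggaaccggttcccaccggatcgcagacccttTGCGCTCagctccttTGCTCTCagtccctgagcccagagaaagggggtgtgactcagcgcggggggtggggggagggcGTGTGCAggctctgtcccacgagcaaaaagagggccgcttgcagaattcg

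The Mt1 window held 1 match and the Mt2 window 5, of which 3 were on the forward strand, while the window of Mt3 held 1. The windows follow the RefSeq starts. In GENCODE Mt2 starts at 94172664, beyond the end of its window, and Mt1 at 94179082, inside its window. Matches outside the windows, also downstream of them, were not counted, so these are not counts for the whole promoters. The core is short and was present in 47.2% of the 27025 genes with an upstream window in the table, and in 13 of the 21 of the 25 leading genes that could be matched. The SOX motif ACAATG was in 2 of those 21 (12.2% of all genes) and the NFI motif TTGGCA in 3 (14.1% of all genes), searched on both strands. These matches are a description of the letters and not of binding.

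The genes lowest in the group were markers of other cells. Meg3, a neuronal non-coding RNA, Mal and Cldn11, which are myelin genes, and the axonal protein gene Basp1 were among those with the lowest ratios in both libraries at 1000 or more UMIs. Cldn11 was at 27.4 CPM in the fresh and 86.7 CPM in the MeOH-fixed group against 714 and 1857 CPM in the other cells. Markers of other identities, 46 genes over the whole list, took a median of 0.105% (0.0363 to 0.391) of the UMIs of a fresh cell and 0.145% (0 to 0.603) of a MeOH-fixed cell. Of these 46 genes 21 were at 0 in all fresh and 17 in all MeOH-fixed cells of the group, among them Dcx, Eomes and Calb2 of immature neurons and progenitors, Pdgfra of OPCs, and Cldn5 and Flt1 of endothelium.

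Immediate early and heat shock genes, which the study used as signs of stress, were not among the higher genes. None of the measured genes of that list was at least 2-fold higher, and 5 of 7 in fresh and 4 of 6 in MeOH-fixed cells were at least 2-fold lower. Over all genes measured 10.8% in the fresh and 7.48% in the MeOH-fixed library were higher, and 46.3% and 50.4% lower. On so few genes the counts do not set this list apart. Summed, they made up 1533 CPM against 4994 CPM in the other fresh cells and 2292 CPM against 5371 CPM in the other MeOH-fixed cells. No UMI of the immediate early genes Egr1, Junb, Atf3 and Arc was found in any of the 47 cells, which at 3 counts allows up to 27.4 CPM in the fresh and 37.2 CPM in the MeOH-fixed group. Egr1 stood at 415 CPM in the other fresh cells and at 2674 CPM in fresh microglia. The chaperone genes Hsp90aa1 and Hsp90ab1 were at 301 and 338 CPM in fresh and at 248 and 719 CPM in MeOH-fixed cells.

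Transcription factors and structural genes that RGLs share with astrocytes were split. In each library 5 of 8 measured genes were at least 2-fold higher, namely Hopx, Sox2, Sox9, Lhx2 and Fabp7. Nfib, an NFI factor also abundant in neuroblasts, was lower at 329 CPM against 2141 CPM in the fresh and 359 CPM against 904 CPM in the MeOH-fixed library, and Nfix was lower in the fresh library. Gfap, the intermediate filament gene of astrocytes and RGLs, gave only 48 UMIs in 12 fresh cells, of which 17 lay in 1 cell, and 19 UMIs in 13 MeOH-fixed cells. Nes, which encodes nestin and is a classical stem cell marker, gave no UMI in any of the 47 cells and 17 and 5 UMIs in the other cells.

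Genes that mark RGLs and not astrocytes were then read cell by cell. Those described here are Neurog2, a transcription factor of neurogenesis, Lpar1, a lysophosphatidic acid receptor, Wnt8b and Frzb, a Wnt ligand and a Wnt antagonist, and Tfap2c, Riiad1, Rhcg, Vnn1 and Thrsp. Thrsp was spread over 11 fresh and 12 MeOH-fixed cells. The 8 other genes gave 30 UMIs in the fresh group, and all 30 lay in 3 cells. The 3 cells held 11, 9 and 10 of these UMIs at total depths of 6624, 9711 and 7782 UMIs, while the 15 other fresh cells held 0 among 85455 UMIs, although 1 of them had 11409 UMIs. Thrsp, left out of this sum, gave 13, 0 and 0 UMIs in the 3 cells and 32 in the 15 others (1.44-fold, 0.693 to 2.82). Lpar1 (4, 3 and 1 UMIs) and Frzb (3, 3 and 5 UMIs) were found in each of the 3 cells, and the other 6 genes with 1 to 3 UMIs each over the 3 cells.

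These 3 cells were singled out after their values had been seen, so the following contrasts are descriptions. No share over all genes was taken for these contrasts, so counts of list members have no background to be read against. The 8 genes summed to 1244 CPM (839 to 1776) in the 3 cells. This was 35.4-fold above the other 15 with those set at the floor of 3 counts, and the exact interval began at 27.1-fold. The 3 cells were picked for holding these UMIs, so the choice of cells fixed this contrast. The full list of RGL-restricted genes, which holds Thrsp, was 4.87-fold higher (3.02 to 7.94). Over the whole group the 8 genes summed to 274 CPM in the fresh and 12.4 CPM in the MeOH-fixed library. Oligodendrocytes were above the group in both libraries, at 370 and 672 CPM. Each other identity lay between 0 and 102 CPM, the highest being MeOH-fixed nIPCs and neuroblasts. In the MeOH-fixed library all of these but endothelial cells were above the group. The name RGL-restricted thus sets these genes against astrocytes only. The 3 cells were 16.7% (3.58 to 41.4) of the fresh group. In the MeOH-fixed group 1 of 29 cells held 1 UMI of these 8 genes, from Frzb, and 0 of 29 held 2 or more, which allows a share of up to 10.3% for cells with 2 such UMIs and sets no limit on cells of this kind. A MeOH-fixed cell of median depth would hold 2.73 such UMIs at the level of the 3 fresh cells, and 1.24 at the lowest depth, so a cell of this kind could be missed at these depths.

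**Figure D3:**
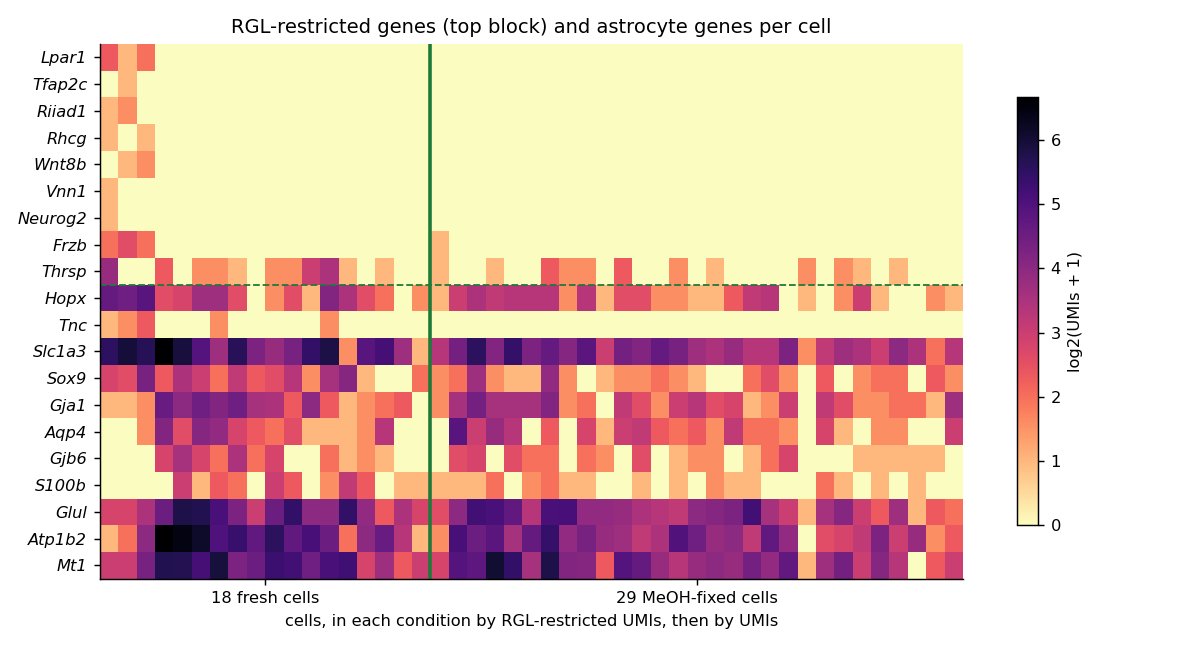
Rows are 20 genes and columns the 47 cells, the 18 fresh cells to the left of the green line and the 29 MeOH-fixed cells to the right, ordered within each condition by UMIs of the 8 RGL-restricted genes and then by depth, and shade gives log2(UMIs + 1). The top 8 rows hold UMIs in the 3 leftmost fresh cells and 1 Frzb UMI in 1 MeOH-fixed cell, and the same 3 fresh cells are pale for Gja1, Aqp4, Gjb6, Glul and Atp1b2.

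The same 3 cells differed from the other 15 in genes outside that list. Hopx gave 24, 28 and 21 UMIs in them and 0 to 17 UMIs in the others, 3027 CPM against 995 CPM (3.04-fold, 2.19 to 4.21). Sparc gave 15, 37 and 20 UMIs, 62.6% of all its UMIs in the fresh group, and was 5.93-fold (4.01 to 8.87) higher. Vim and Fabp7, an intermediate filament and a fatty acid carrier of radial glia, were 3.54-fold and 2.78-fold higher, and the matrix gene Tnc was at 290 CPM against 46.8 CPM on 7 and 4 UMIs. These were not the whole list of stem cell genes shared with astrocytes, of whose 15 members Hopx, Vim and Fabp7 alone had intervals above 1 and 0 had one below. Gfap gave 5 UMIs in the 3 cells and 43 in the others (0.412-fold, 0.127 to 1.04), and the list as a whole was 1.53-fold higher. Slc1a3 (1.15-fold) and Sox9 (1.28-fold) had intervals that included 1.

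Summed over their list, genes of mature astrocytes were lower in these 3 cells than in the other 15. Of the 13 genes used to separate astrocytes from RGLs 8 had intervals below 1 and 0 above. Of the 9 genes of coupling, water and potassium handling 6 were lower in this sense and 2 higher. These counts lack a share over all genes and are given as values alone, and the intervals leave out the spread among cells. Gja1 gave 1, 2 and 1 UMIs, 166 CPM against 1767 CPM (log2 ratio -3.41), and Aqp4 gave 0, 2 and 0 UMIs, 82.9 CPM against 983 CPM (log2 ratio -3.57). Gjb6, S100b, Grin2c, Slc4a4 and Agt gave no UMI in them. Glul was at 912 CPM against 4178 CPM and Atp1b2 at 788 CPM against 6190 CPM. The 2 higher genes were Kcnj10, on 22 UMIs against 23 (3.39-fold, 1.80 to 6.36), and Mlc1 (1.72-fold, 1.08 to 2.68). The 13 genes summed to 1493 CPM against 6378 CPM (log2 ratio -2.10), and metallothioneins had a log2 ratio of -1.64. Markers of nIPCs and neuroblasts gave 1 UMI and cell cycle genes 5 UMIs over the 3 cells. Granule neuron markers gave 7 UMIs in them and 5 in the other 15 (4.96-fold, 1.36 to 19.8), and their part in these differences was not tested. In the correlation with identities the 3 cells remained nearest to astrocytes and RGLs, with margins of 0.0668, 0.0606 and 0.0559 against a median of 0.0898 over the 18 fresh cells.

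The fresh cells were also divided by their nuclear non-coding RNA. Malat1, a long non-coding RNA retained in the nucleus (chr19:5795690-5802672, minus strand), was found with 0 to 17 UMIs in 8 of the 18 fresh cells (44.4%, 21.5 to 69.2) and with 60 to 414 UMIs in the other 10, and with no value between. Kcnq1ot1, a nuclear RNA that silences neighbouring imprinted genes (chr7:143203458-143296549, minus strand, overlapping Kcnq1 on the other strand, with the strand setting of the counting not given in the sources used here), was found with 0 to 2 UMIs in the same 8 cells and with 30 to 158 in the same 10. In CPM, Malat1 was at 1843 in the 8 cells and 26105 in the 10, and Kcnq1ot1 at 323 and 9435. The transcripts Gm17821, A630089N07Rik and Grk4 were split alike, at 226, 129 and 64.7 CPM in the 8 cells and 5913, 3726 and 2187 CPM in the 10, and Neat1, another nuclear RNA, was at 0 and 521 CPM. This grouping was made after the values had been seen.

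Astrocyte transcripts were not divided to this extent. Apoe was at 11672 CPM in the 8 cells and 12614 CPM in the 10, Slc1a3 at 5496 and 5811 CPM, and Aldoc at 11219 and 5989 CPM. Others were lower in the 8 cells, among them Clu at 4203 and 7184 CPM, Gja1 at 938 and 1602 CPM, and Mfge8 at 776 and 1500.5 CPM. The 8 cells had a median of 4322 UMIs (1534 to 5993) and a median mitochondrial share of 28.7% (0.962 to 65.8), against 7319 UMIs (5504 to 11409) and 18.4% (6.86 to 25.9) in the 10. The part of depth and mitochondrial share in the split was not tested. All 3 cells with RGL-restricted transcripts were among the 10. Of the other 46 fresh cells 9 (19.6%) held fewer than 20 UMIs of Malat1, and 6 of these also held fewer than 5 of Kcnq1ot1.

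**Figure D4:**
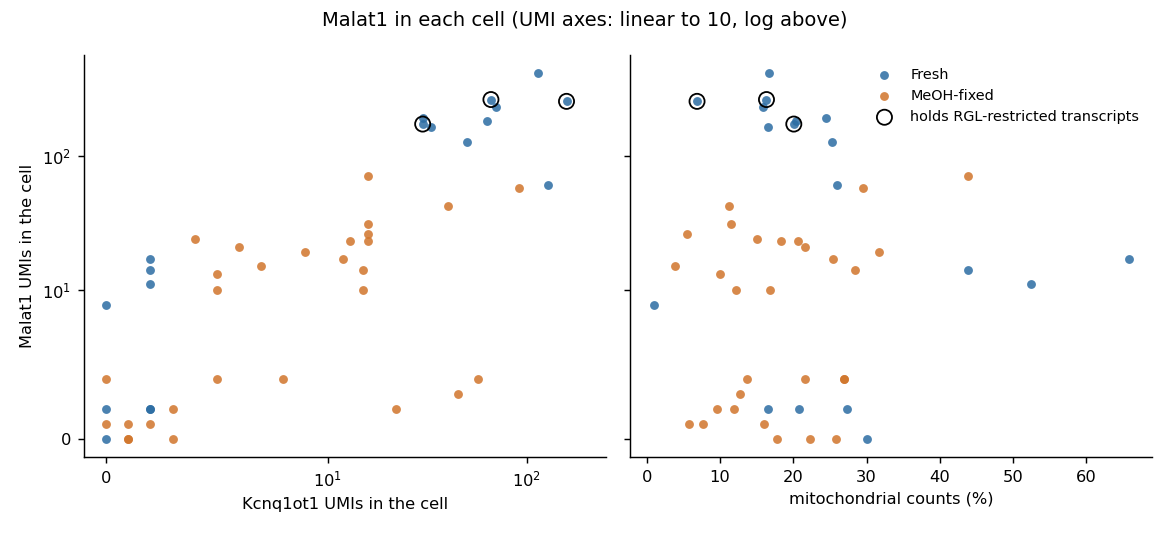
Malat1 UMIs of each cell are plotted against its Kcnq1ot1 UMIs (left) and its mitochondrial percentage (right), with UMI axes linear to 10 and logarithmic above, blue for fresh, orange for MeOH-fixed cells and rings for the 3 cells with RGL-restricted transcripts. The fresh cells form 8 points at 0 to 2 Kcnq1ot1 UMIs and 10 points at 30 or more, and of the 29 MeOH-fixed cells 19 lie between 3 and 29.

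In the MeOH-fixed group no such gap was seen. Malat1 ranged from 0 to 70 UMIs, 20 of 29 cells held fewer than 20, and 19 held between 3 and 29 UMIs of Kcnq1ot1, a range that was empty among the fresh cells of the group. In 8 of the 29 cells Malat1 was under 20 and Kcnq1ot1 under 5 UMIs. Spearman's rho between the UMIs of the 2 RNAs was 0.79 over the 18 fresh and 0.52 over the 29 MeOH-fixed cells, which share a library and differ in depth. Between Malat1 and the total UMIs of a cell rho was 0.70 in the fresh and -0.23 in the MeOH-fixed cells. Between Malat1 and the mitochondrial share it was -0.42 and 0.18.

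Gene by gene, the spread among cells beyond counting error was similar in both libraries. Over 64 genes with at least 100 UMIs in each, the median coefficient of variation was 0.530 among fresh and 0.520 among MeOH-fixed cells. Grk4 (0.81 and 1.47), Gm17821 (0.89 and 1.30), A630089N07Rik (0.87 and 1.22) and Kcnq1ot1 (0.84 and 1.09) varied most, followed by Mfge8, which encodes a secreted glycoprotein (0.78 and 0.85), and S1pr1 (0.72 and 0.86). At the single-cell level, 1 fresh cell of 4440 UMIs held 111 UMIs of Aldoc but 2 of Slc1a3 at a mitochondrial share of 0.962%, and 1 MeOH-fixed cell of 1790 UMIs held 0 UMIs of Aldoc and 6 of Apoe.

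The MeOH-fixed and fresh cells of the group were compared over the 142 genes with at least 100 UMIs in the 47 cells. Of these 131 (92.3%) lay within 2-fold of each other, 6 (4.23%) were at least 2-fold higher in MeOH-fixed cells, and 5 (3.52%) at least 2-fold lower. In the other cells of the same 2 libraries 81.0% of these genes lay within 2-fold, 13 (9.15%) were higher and 14 (9.86%) lower. The genes were chosen by their UMIs in the 47 cells, and some rested on few UMIs in the other cells. The mix of identities among the other cells also differed between the libraries, so the 2 shares cannot be set against each other. In the group the log2 ratios had a median of 0.11, and in the other cells one of 0.08. Slc1a2, Slc1a3 and Id4 had log2 ratios of 0.04, -0.03 and -0.07.

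Among the 6 higher genes were Aplp1, an amyloid precursor-like protein gene (log2 ratio 1.68, 1.23 to 2.16), Cox8a and Atp5g3, which encode parts of the respiratory chain and ATP synthase (1.29 and 1.11), the small RNA gene Mir5109 (1.25) and Aqp4 (1.04, 0.63 to 1.45). In the other cells Aqp4 had a log2 ratio of 0.39, which rested on only 3 UMIs in the fresh library, at the floor of 3 counts. Without the 3 fresh cells that held RGL-restricted transcripts its log2 ratio in the group was 0.71, and after thinning to 800 UMIs 0.53, both short of 2-fold. Malat1 (log2 ratio -1.82, interval -1.97 to -1.67) and the mitochondrial genes mtNd5 (-1.81) and mtNd4l (-1.51) were lower, and were lower in the other cells too, at -1.73, -1.38 and -1.38. The split of the fresh cells bore on Malat1, whose log2 ratio was -2.26 without the 8 cells that held little of it.

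The 2 other lower genes were Gria2 and Sparc. Gria2, an AMPA receptor subunit gene, was at 904 CPM in fresh and 347 CPM in MeOH-fixed cells (log2 ratio -1.38, -2.04 to -0.76), but after thinning each cell to 800 UMIs the log2 ratio was 0.19. In the other cells its log2 ratio was 0.30. Sparc was at 1050 and 409 CPM (log2 ratio -1.36, -1.97 to -0.79). Without the 3 fresh cells that held RGL-restricted transcripts the log2 ratio of Sparc was -0.30, so that these 3 cells carried most of the difference in the group.

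**Figure D5:**
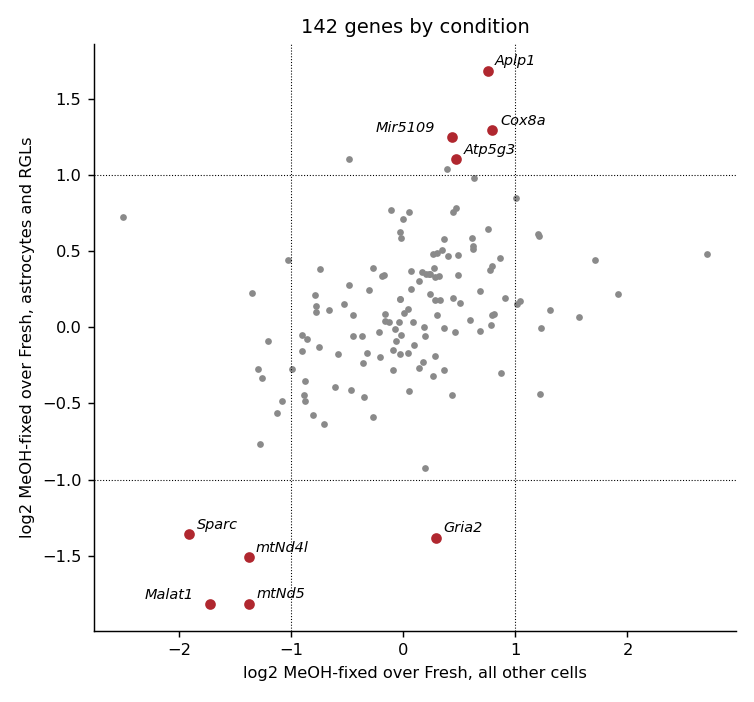
Each point is 1 of 142 genes, placed by its log2 ratio of MeOH-fixed over Fresh in all other cells (x axis) and in astrocytes and RGLs (y axis), with dotted lines at a 2-fold ratio and named genes in red. Malat1, mtNd5, mtNd4l and Sparc are low on both axes, and Gria2 is low in astrocytes and RGLs alone, at -1.38 against 0.30, though at 0.19 after thinning.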

How the data were processed

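Single cells of the mouse DG were sequenced by SORT-seq with CEL-Seq2 chemistry. The deposited tables hold expected counts: the authors mapped reads to GRCm38 with STAR, collapsed UMIs, and adjusted transcript numbers for UMI collisions. The submitters' processing notes also name R 4.2.0 and Seurat 4.1.0. The deposited metadata give identities, spike-ins and the mitochondrial percent of each filtered cell. The authors kept cells with 800 to 35000 transcripts, over 500 genes, over 1.2 transcripts per gene and over 500 spike-ins.

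The adjustment was inverted with 4096 possible UMIs, and every value came out whole (largest distance 3.64e-12). UMIs were summed per identity and library and scaled to CPM. With 1 library per condition no test was run. Ratios carry exact conditional intervals, sums exact Poisson and shares Clopper-Pearson intervals at 95%. Gene ratios over other cells needed 50 UMIs in a library, and ratios between conditions 100 UMIs in the 47 cells. A floor is 3 counts. Cells were thinned with seed 1. The ratio step was tested on simulated data. The steps ran in Python 3.11.15 with scipy 1.17.1, pandas 2.3.3 and numpy 2.4.6, and figures in matplotlib 3.10.9.

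The members and gene lists were chosen with earlier results of these data known. Named genes are list members, the 25 highest and 5 lowest over other cells (the highest with a UMI in at least 25% of the 47 cells in each condition), the 5 highest and 5 lowest between conditions, the 10 most variable and the 10 most abundant. Aqp4 was named as past 2-fold between conditions. Some genes are not reported here. Nes, Tnc and Neat1 were chosen after their values were seen. Positions are from GENCODE on GRCm38, upstream sequences from RefSeq. In all 70 alternatives were planned and 15 added after seeing the data.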

Additional observations from a re-analysis of the deposited data

Results flagged for a closer look

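For 5 genes the ratio of astrocytes and RGLs over the other cells passed 2-fold in opposite directions in the 2 libraries, and the difference between the libraries was not tested. The other cells differed in their mix of identities between the libraries, and the part of this mix in the ratios was not tested either. Atxn2, an RNA-binding protein gene, had a log2 ratio of 1.25 in the fresh and -1.16 in the MeOH-fixed library. Cyhr1 had log2 ratios of 1.25 and -1.24. Tmem132b, a membrane protein gene, had log2 ratios of 1.31 and -3.58. Cdkn1b, which encodes the cell cycle inhibitor p27, had log2 ratios of -1.20 and 1.31. Npc2, a lysosomal cholesterol carrier gene, had log2 ratios of -1.40 and 1.15.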

How the results depend on the processing

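With at least 20 UMIs in place of 50, 587 genes were higher and 2342 lower in the fresh library, 612 and 3270 in the other, and 322 and 1459 in both. With no filter these were 2080 and 7493, 1968 and 8118, and 884 and 4670, and at 4-fold 115 and 472, 117 and 852, and 77 and 265. Against other non-neuronal cells alone, 469 genes were higher in the MeOH-fixed library, 337 were lower in both, the share of the group was 43.9% and 43.3%, and the granule neuron list had log2 ratios of 0.36 and 1.31 in place of -3.96 and -3.23. With each other identity weighted equally, the reactive astrocyte list had a log2 ratio of -0.11 in the MeOH-fixed library in place of 1.05. After thinning to 800 UMIs, 334 genes were higher in fresh cells, 17 differed 2-fold between conditions in place of 11, Gria2 had a log2 ratio of 0.19, the log2 ratio of genes per cell was 0.027 in place of -0.98, the median coefficients of variation were 0.595 and 0.604, and other markers took 0.125% of a fresh cell. Between conditions, 18 genes passed 2-fold in cells under 25% mitochondrial counts, 35 at a minimum of 50 UMIs, and 2658 with no filter. The log2 ratio between conditions was at least 1 apart in the group and in the other cells for 19 genes, for 33 with the mean of CPM per cell, and for 45 after thinning. The cause of these shifts was not tested, apart from the lower minimum and the other fold, which act by their construction.

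Alternatives added after seeing the data left out the 3 cells with RGL-restricted transcripts, the 8 cells with little Malat1, or the MeOH-fixed cell nearest to immature neurons, and all 21 counts under them stayed within 1.5 times the reported ones. Ratios with a sum at 0 were not recomputed. No paired analysis was possible because each condition has 1 library, numbered 1. The depth of the MeOH-fixed cells limits genes of low CPM to their sums, and 1 library per condition leaves the spread between mice unknown.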

Other observations

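Notch pathway genes were sparse in the 47 cells, and Id genes less so. Summed over Notch pathway and Id genes, the group stood at 1971 CPM in the fresh and 2366 CPM in the MeOH-fixed library, against 930 and 424 CPM in the other cells. Id4, Id3 and Id2, inhibitors of bHLH factors, were found with 54, 25 and 65 UMIs in the fresh and 38, 29 and 79 UMIs in the MeOH-fixed group. Id2 had a log2 ratio of 0.36 over the other fresh cells and of 3.58 over the other MeOH-fixed cells, which held 462 and 81.8 CPM. Notch1 gave 22 and 6 UMIs, of which 9 of the fresh ones lay in the 3 cells with RGL-restricted transcripts, Hes5 gave 13 and 8, and Dll1 and Notch3 gave none.

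Of the listed matrix genes 8 were measured in each library, of which 4 were at least 2-fold higher in both and 1 lower in both. Over all genes measured in both these shares were 7.69% and 32.7%. The 4 were Bcan (1597 and 1536 CPM), Cspg5 (657 and 743 CPM), Tril (538 and 582 CPM) and Ttyh1 (3030 and 2701 CPM). In the fresh library 4 were higher, 1 lower and 3 between, and in the MeOH-fixed library 6, 1 and 1. Vcan, a proteoglycan gene of OPCs, gave 0 and 1 UMI. Genes of dividing cells summed to 192 CPM in the fresh and 74.3 CPM in the MeOH-fixed group, against 269 and 615 CPM in the other cells, with 1 UMI of Top2a in the fresh and 1 UMI of Mki67 in the MeOH-fixed group. Genes raised in reactive astrocytes summed to 630 CPM in the fresh and 396 CPM in the MeOH-fixed group, against 184 and 191 CPM in the other cells. The log2 ratios of these sums were 1.78 (1.29 to 2.26) and 1.05 (0.44 to 1.62). With each other identity weighted equally, the MeOH-fixed log2 ratio was -0.11. No member of the list reached the UMI minimum for gene ratios. Among its sparse members, Serpina3n gave 0 and 6 UMIs, Cd44 gave 0 and 1, and Steap4 and Cxcl10 none.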
